A study of Mus musculus with 4 samples.

Results

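The Skint family was examined in regenerating mouse digit tips in which Sp6, Sp8 or both had been conditionally deleted. The 10 members, Skint1, Skint2, Skint3, Skint4, Skint5, Skint6, Skint7, Skint9, Skint10 and Skint11, were taken by gene symbol from a table of 45706 genes. They had been listed because the family stood higher in both single knockout libraries and less so in the double knockout, so their levels in these libraries are given as a description and no level was tested. The table holds 11 Skint genes, and Skint8, which was not on the list, is described beside the members.

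Each group was 1 RNA-seq library of digit tip tissue taken 14 days after amputation. The groups were Sp6 conditional knockout (cKO), Sp8 cKO, Sp6+Sp8 cKO and wildtype. Per the labels' protocols, deletion was induced with tamoxifen at 75 mg/kg once a day for 5 days and was followed by 5 days of rest before amputation. The sources used here do not give the Cre driver, the strain, the age, the amputation level of each library, the number of animals in a library or whether wildtype mice received tamoxifen. The labels put the cKO libraries in batch 1 and wildtype in batch 3, and where a cKO is set against wildtype the genotype and the batch cannot be told apart.

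Library totals lay between 12588511 and 21834883 estimated counts. Levels are given as CPM, the count divided by the library size after TMM scaling, and a count of 3 corresponds to between 0.138 and 0.238 CPM. Sp6 stood at 29.2 CPM in Sp6 cKO, 95.6 CPM in Sp8 cKO and 57.8 CPM in Sp6+Sp8 cKO, against 97.7 CPM in wildtype. Sp8 stood at 66.1, 16.8 and 13.4 CPM in the Sp6, Sp8 and Sp6+Sp8 cKO libraries, against 63.9 CPM in wildtype. The double knockout library thus had a smaller shortfall of Sp6 than the Sp6 cKO library. The sex makeup of the libraries also differed, since Xist, which coats the inactive X chromosome, was at 1963 CPM in Sp6 cKO, 27.9 CPM in Sp8 cKO and 3528 CPM in Sp6+Sp8 cKO, against 1526 CPM in wildtype. The part of this difference in the Skint levels was not tested.

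Skint genes encode membrane proteins with immunoglobulin-like domains and several transmembrane segments, related to the butyrophilins. They are known from keratinocytes of the skin and from thymic epithelium. Skint1 is required in the mouse thymus for the maturation of the gamma-delta T cells that later settle in the epidermis as dendritic epidermal T cells, and Skint3 and Skint9 have been tied to the response of those T cells at mouse skin wounds. Skint2 was also described as B7S3, an inhibitor of T cell activation.

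The 11 Skint genes lie together on GRCm38 chromosome 4, between 111919392 and 114245028, a span of 2326 kb in the GENCODE M21 annotation. No protein-coding gene of another family lies inside this span. The order along the chromosome is Skint8, Skint7, Skint1, Skint4, Skint3, Skint9, Skint2, Skint10, Skint6, Skint5 and Skint11. Skint9, Skint10, Skint6 and Skint5 are on the minus strand and the others on the plus strand.

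The sequences upstream of the RefSeq start sites (GRCm38.p6) sort the family into sets that share long runs of bases, and these are shown because the levels below are read against them. The sets were drawn up after the levels were known. Of 12 windows of 250 bases, for 11 genes, those of Skint1, Skint3, Skint5 and Skint6 and the second start of Skint4 share a run of 14 bases, given in capitals in the following stretches, each written 5′ to 3′ on the gene's strand.
Skint1, chr4:112006026-112006081, plus strand: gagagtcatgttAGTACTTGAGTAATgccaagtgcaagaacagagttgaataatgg
Skint3, chr4:112232130-112232185, plus strand: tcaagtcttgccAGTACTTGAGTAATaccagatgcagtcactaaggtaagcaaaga
Skint4, chr4:112081411-112081466, plus strand: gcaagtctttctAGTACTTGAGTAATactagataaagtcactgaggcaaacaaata
Skint5, chr4:113999688-113999743, minus strand: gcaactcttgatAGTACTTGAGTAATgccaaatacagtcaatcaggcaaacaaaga
Skint6, chr4:113287158-113287213, minus strand: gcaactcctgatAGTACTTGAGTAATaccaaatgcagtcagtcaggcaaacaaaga
The run starts between 47 bases (Skint4) and 231 bases (Skint1) upstream of the start site, and these 5 are the only windows among 32851 of all genes that hold it on either strand. The windows of Skint5 and Skint6 share an unbroken run of 26 bases.

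The windows of Skint9, Skint10 and Skint11 share another run, of 13 bases, again in capitals.
Skint9, chr4:112434142-112434192, minus strand: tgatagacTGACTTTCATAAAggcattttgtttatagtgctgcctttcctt
Skint10, chr4:112774932-112774982, minus strand: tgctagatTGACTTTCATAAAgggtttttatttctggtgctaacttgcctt
Skint11, chr4:114163314-114163364, plus strand: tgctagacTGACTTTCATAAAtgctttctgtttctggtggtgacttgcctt
It starts 199, 113 and 62 bases upstream of the start sites of Skint9, Skint10 and Skint11, and no other of the 32851 windows holds it. Skint7 and Skint8 share a run of 51 bases, placed 52 bases upstream in Skint7 and 230 bases upstream in Skint8.
Skint7, chr4:111972875-111972925, plus strand: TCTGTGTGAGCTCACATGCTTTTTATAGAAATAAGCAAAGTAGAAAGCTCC
Skint8, chr4:111919325-111919375, plus strand: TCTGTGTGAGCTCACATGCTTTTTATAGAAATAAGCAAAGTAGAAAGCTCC
The Skint2 window and the window of the first start of Skint4 hold none of the 3 runs. The Skint2 window does share runs of 12 bases with those of Skint3, Skint5 and Skint6. Because each run was found as the longest one shared within its set, its scarcity elsewhere is a description.

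Letters bound by Sp-family factors were searched in the same upstream windows on both strands. GGGCGG, the GC box, was in 0 of the 12 Skint windows and in 32.7% of all windows. CACCC, the core of a GT box, was in 6 of the 12 Skint windows, those of Skint2, Skint5, Skint6, Skint8 and both of Skint4, and in 52.0% of all windows. TGANTCA, the site of AP-1 factors, was in the Skint11 window alone and in 6.75% of all windows. The Skint windows were poor in G and C, at 34.0% to 42.8%, against a median of 52.4% over all windows. These matches describe letters in a window and not sites in use.

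Summed over the 10 members, the family stood at 152.5 CPM in Sp6 cKO (95% Poisson interval 145.8 to 159.4), 132.1 CPM in Sp8 cKO (125.8 to 138.6) and 71.2 CPM in Sp6+Sp8 cKO (67.1 to 75.6), against 47.4 CPM in wildtype (44.6 to 50.4). The sum was 3.22-fold higher in Sp6 cKO than in wildtype (95% interval 2.98 to 3.47), 2.79-fold higher in the Sp8 cKO library (2.58 to 3.01) and 1.5-fold higher in Sp6+Sp8 cKO (1.38 to 1.64). Intervals cover counting error only and say nothing of variation between animals. With any 1 member left out, the fold lay between 2.81 and 3.70 in Sp6 cKO, 2.48 and 3.15 in the Sp8 cKO library and 1.33 and 1.70 in Sp6+Sp8 cKO, so no single gene carried the sum. In whole tissue, fewer cells of a type and less RNA per cell cannot be told apart.

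**Figure D1:**
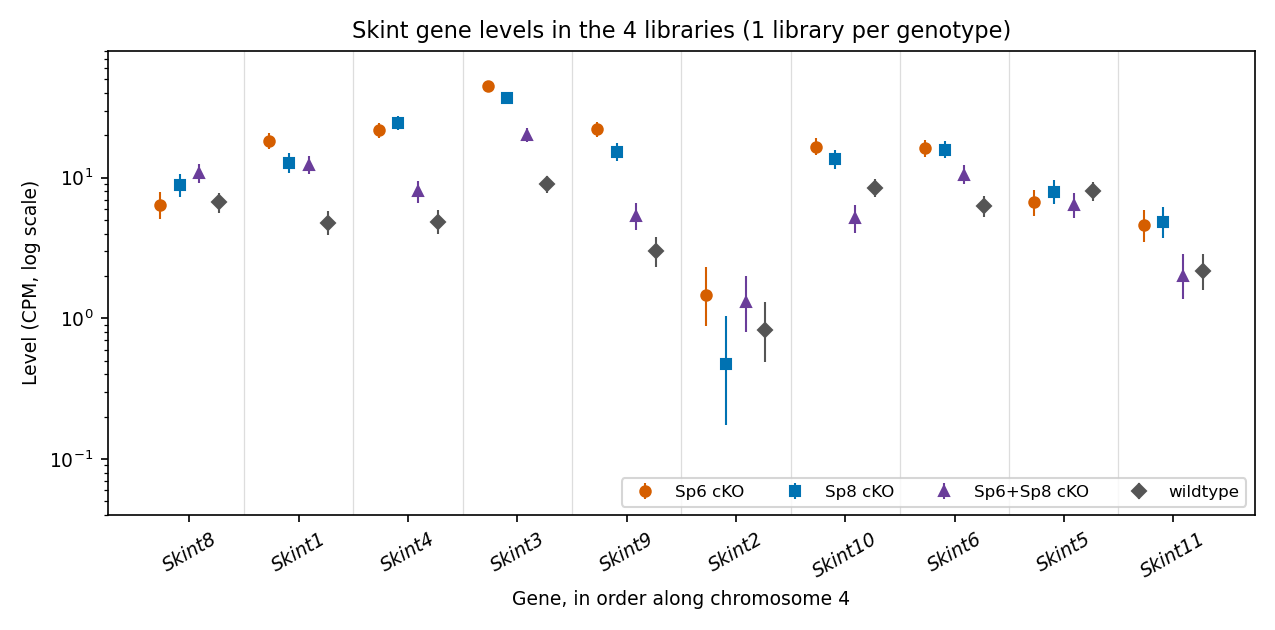
Level of each Skint gene in each library, as CPM on a log axis, with genes in their order along chromosome 4 and bars for 95% Poisson counting intervals. Each symbol is 1 library; Skint7, with at most 1 count, is left out. In Skint1, Skint4, Skint3, Skint9 and Skint6 the wildtype library is the lowest of the 4, while in Skint8, Skint2, Skint10, Skint5 and Skint11 it is not.

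Genes were counted by a size rule with 3 parts. A gene passed when its log2 ratio was 1 or more, up or down, when either of the 2 libraries reached 1 CPM, and when the 95% interval of its ratio (Clopper-Pearson, exact) left out 1. The log2 ratios carry a prior count of 2 and are slightly smaller than the folds printed beside them. In Sp6 cKO against wildtype 9 of the 10 members reached 1 CPM, and 6 were past the rule, all higher, where 2.24% of 16884 genes were higher and 2.16% lower. Their median log2 ratio was 1.36, against -0.01 over all genes compared. In Sp8 cKO against wildtype 8 members reached 1 CPM and the same 6 genes were past the rule, all higher, where 2.27% of genes were higher, with a median of 1.36. In Sp6+Sp8 cKO against wildtype 2 of 9 were past the rule, both higher, where 2.84% of genes were higher and 2.95% lower. The median was 0.70. The 3 comparisons share the wildtype library, and the members were picked on these values, so the counts are not set against the background shares.

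Skint1 (ENSMUSG00000089773) was higher in each cKO library than in wildtype. It had 236 counts in the Sp6 cKO library, 161 in the Sp8 cKO library and 190 in Sp6+Sp8 cKO, against 104 in wildtype, or 18.3, 12.8 and 12.3 CPM, against 4.78 CPM. Its fold over wildtype was 3.83 in Sp6 cKO (95% interval 3.02 to 4.87), 2.67 in the Sp8 cKO library (2.08 to 3.45) and 2.58 in Sp6+Sp8 cKO (2.02 to 3.31). The Sp6+Sp8 cKO and Sp8 cKO libraries did not differ beyond counting error, with a log2 ratio of -0.05.

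Skint9 (ENSMUSG00000049972) and Skint3 (ENSMUSG00000070868) were among the most raised members in the single knockouts. Skint9 had 285 counts in Sp6 cKO, 193 in the Sp8 cKO library and 82 in Sp6+Sp8 cKO, against 65 in wildtype, or 22.1, 15.3 and 5.33 CPM, against 2.99 CPM. That is 7.39-fold over wildtype in Sp6 cKO (95% interval 5.63 to 9.83), 5.12-fold in the Sp8 cKO library (3.85 to 6.90) and 1.78-fold in Sp6+Sp8 cKO (1.27 to 2.51), the last of which did not pass the size rule. The Sp6 cKO level was also above that of Sp8 cKO, with a log2 ratio of 0.52 and a counting interval that excluded equality.

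Skint3 gave the most counts of the family in every library, at 576 in Sp6 cKO, 463 in the Sp8 cKO library and 311 in Sp6+Sp8 cKO, against 195 in wildtype. Its levels of 44.7, 36.8 and 20.2 CPM, against 8.97 CPM in wildtype, were 4.98-fold (95% interval 4.23 to 5.89), 4.10-fold (3.46 to 4.87) and 2.25-fold (1.88 to 2.71) higher. Skint3 and Skint1 were the members past the size rule in all 3 comparisons with wildtype.

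Skint4 (ENSMUSG00000055960) also had its lowest level in wildtype but was highest in Sp8 cKO. It had 281 counts in Sp6 cKO, 310 in the Sp8 cKO library and 123 in Sp6+Sp8 cKO, against 106 in wildtype, or 21.8, 24.6 and 7.99 CPM, against 4.88 CPM. It was 4.47-fold (95% interval 3.56 to 5.64), 5.05-fold (4.04 to 6.35) and 1.64-fold (1.25 to 2.15) over wildtype. The 2 single knockouts did not differ beyond counting error, with a log2 ratio of -0.17 for Sp6 cKO against Sp8 cKO.

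Skint6 had 16.3 CPM in Sp6 cKO, 15.9 CPM in Sp8 cKO and 10.5 CPM in Sp6+Sp8 cKO, against 6.25 CPM in wildtype, with log2 ratios of 1.36, 1.33 and 0.74. Its near neighbour Skint5 did not share this pattern. Skint5 had 6.67, 7.94 and 6.37 CPM in the Sp6, Sp8 and Sp6+Sp8 cKO libraries, against 8.0 CPM in wildtype, with log2 ratios of -0.26, -0.01 and -0.32 and counting intervals that each held 1.

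The deposited values of Skint5 and Skint6 were not all whole. They were 86 and 210 in Sp6 cKO and 100.001 and 199.998 in Sp8 cKO, which add to 296 and 299.999. In Sp6+Sp8 cKO they were 97.942 and 162.058, and in wildtype 173.842 and 136.158, which add to 260 and 310. Of the 31-base words in the annotated transcripts of each gene, 9.13% of those of Skint5 occur in Skint6 and 10.4% of those of Skint6 in Skint5, while no word of 150 bases, the read length, is shared. Taken as 1 feature, the pair was 1.61-fold higher in Sp6 cKO than in wildtype (95% interval 1.37 to 1.89), 1.67-fold higher in the Sp8 cKO library (1.42 to 1.96) and 1.19-fold higher in Sp6+Sp8 cKO (1.00 to 1.40). How much of the contrast between the genes came from dividing shared reads was not tested.

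Skint10 and Skint11 share their upstream run with Skint9, and in Sp6+Sp8 cKO neither stood above wildtype. Skint10 had 215 counts in Sp6 cKO, 170 in the Sp8 cKO library and 79 in Sp6+Sp8 cKO, against 185 in wildtype, or 16.7, 13.5 and 5.13 CPM, against 8.51 CPM. Its log2 ratios to wildtype of 0.96 and 0.66 in the single knockouts did not pass the size rule, and in Sp6+Sp8 cKO it was 1.66-fold lower than in wildtype (95% interval 1.27 to 2.18). Skint11 had 4.57 CPM in Sp6 cKO, 4.84 CPM in Sp8 cKO and 2.01 CPM in Sp6+Sp8 cKO, against 2.16 CPM in wildtype, with log2 ratios of 1.04, 1.12 and -0.10. Of its 31-base words 12.4% also occur outside the family, above all in Gm12813, a pseudogene elsewhere in the cluster, which had at most 6 counts.

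The remaining members were near the floor of detection. Skint2 had 19 counts in Sp6 cKO, 6 in the Sp8 cKO library and 20 in Sp6+Sp8 cKO, against 18 in wildtype, and its intervals against wildtype each held 1. Skint7 had 0 counts in the 3 cKO libraries and 1 in wildtype and was not detectable at this depth. Skint2, Skint5 and Skint7 therefore did not show the pattern by which the list was drawn up.

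Skint8, left off the list, was ordered differently from the others. It stood at 6.44 CPM in Sp6 cKO, 8.89 CPM in Sp8 cKO and 10.7 CPM in Sp6+Sp8 cKO, against 6.67 CPM in wildtype. Its log2 ratios of -0.05, 0.41 and 0.67 did not pass the size rule. The double knockout was the highest of the 4 libraries but could not be separated from Sp8 cKO by counting error. Skint8 and Skint7 share words of 150 bases as well as of 31, 1.88% and 9.24% of those of Skint8, but Skint7 drew almost no reads.

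**Figure D2:**
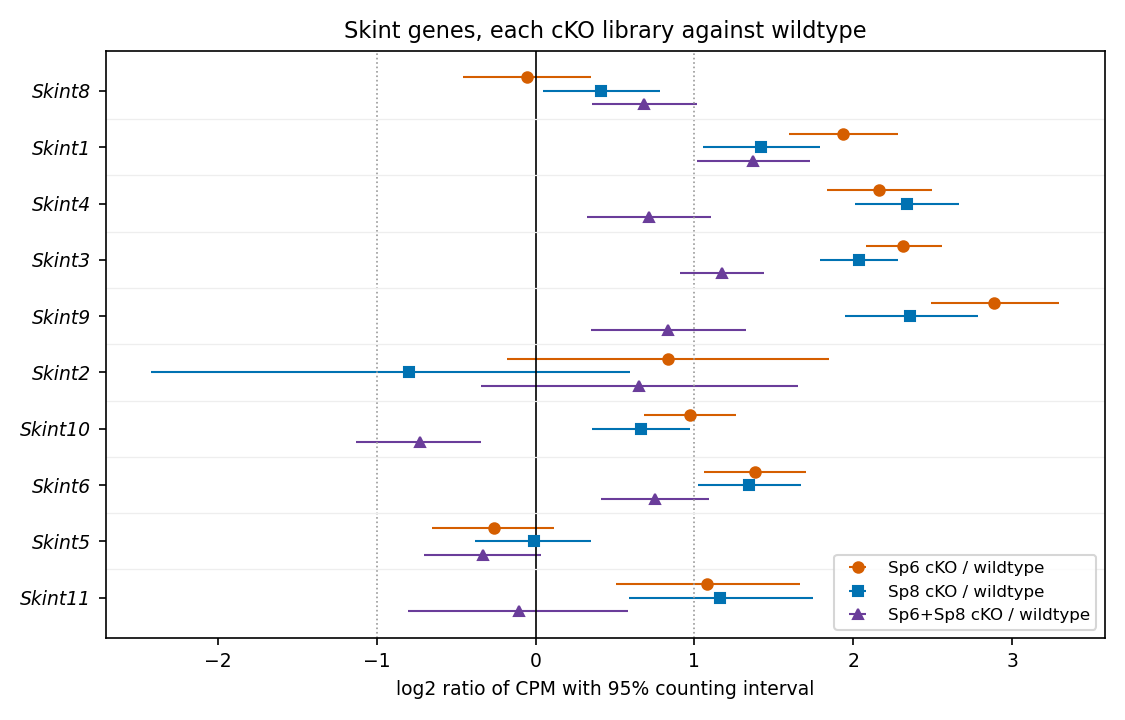
Log2 ratio of CPM for each Skint gene in the Sp6, Sp8 and Sp6+Sp8 cKO libraries over wildtype, without a prior count, with bars for exact 95% counting intervals and dotted lines at a log2 ratio of 1 in either direction. Skint7 is left out. The circles and squares of the single knockouts lie close to each other for most genes. The triangles of the double knockout lie at lower ratios for Skint9, Skint4, Skint3, Skint10, Skint6 and Skint11, and at a higher one for Skint8.

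The libraries of batch 1 were then compared with each other, which leaves the wildtype library and its batch out. The members' sum was 2.14-fold lower in Sp6+Sp8 cKO than in the Sp6 cKO library (95% interval 1.99 to 2.31) and 1.85-fold lower than in Sp8 cKO (1.72 to 2.00). Against Sp6 cKO, 5 of 9 members with a CPM of at least 1 were past the size rule, all lower in Sp6+Sp8 cKO, where 2.08% of 16848 genes were lower and 1.89% higher. Against Sp8 cKO 4 of 9 were lower, where 2.80% of 16889 genes were lower, and Skint2 was higher, where 1.88% were. The medians of the members' log2 ratios were -1.13 and -0.86, against -0.01 and -0.02 over all genes compared. The family had been listed for standing less high in the double knockout than in the single ones. Lower levels in Sp6+Sp8 cKO were thus part of the choice, and these counts and medians are a description and not a test.

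The 3 genes with the shared 13-base run, Skint9, Skint10 and Skint11, were past the rule in both comparisons, as was Skint4. Skint9 was 4.15-fold lower in Sp6+Sp8 cKO than in the Sp6 cKO library (95% interval 3.23 to 5.37) and 2.87-fold lower than in Sp8 cKO (2.21 to 3.77). Skint10 was 3.25-fold lower (2.5 to 4.26) and 2.63-fold lower (2.00 to 3.48), and Skint11 2.27-fold lower (1.45 to 3.63) and 2.40-fold lower (1.54 to 3.83). Skint4 was 2.73-fold lower (2.20 to 3.40) and 3.08-fold lower (2.49 to 3.83).

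In the set with the 14-base run the drop was uneven. Skint4, given above, was past the rule in both comparisons. Skint3 was 2.21-fold lower in Sp6+Sp8 cKO than in the Sp6 cKO library and, with a log2 ratio of -0.86, did not pass the rule against Sp8 cKO. Skint6 had log2 ratios of -0.62 and -0.59, Skint1 of -0.56 and -0.05, and Skint5 of -0.06 and -0.31. Skint8 was 1.67-fold higher in Sp6+Sp8 cKO than in the Sp6 cKO library (95% interval 1.27 to 2.20). Against Sp8 cKO it was 1.21-fold higher, with an interval that held 1 (0.94 to 1.55). The sets were drawn up after the levels were known, and no test was made of whether they differ.

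Between the single knockouts the family differed little. The members' sum was 1.15-fold higher in Sp6 cKO than in Sp8 cKO (95% interval 1.08 to 1.23), with a median log2 ratio of 0.28. Only Skint2 was past the size rule, higher in Sp6 cKO on 19 counts against 6 in Sp8 cKO, where 1.35% of 16912 genes were higher and 1.75% lower.

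**Figure D3:**
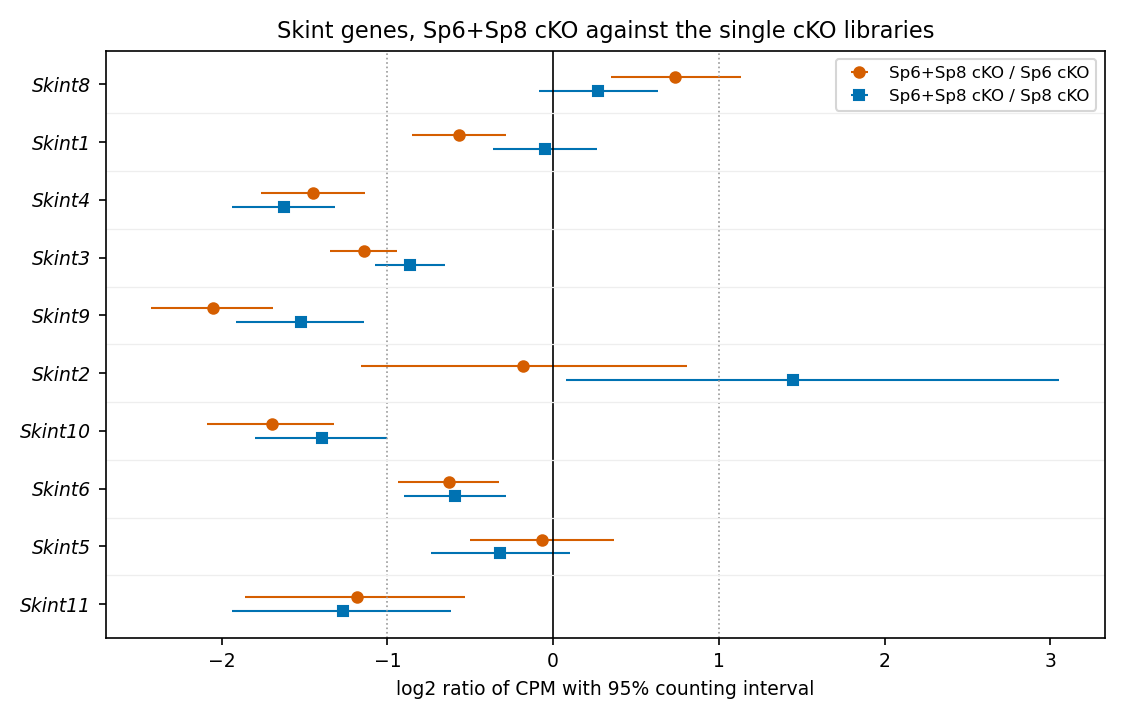
Log2 ratio of CPM for each Skint gene in Sp6+Sp8 cKO over Sp6 cKO (circles) and over Sp8 cKO (squares), without a prior count, with exact 95% counting intervals and dotted lines at a log2 ratio of 1 in either direction. Skint7 is left out. Skint9, Skint10, Skint4 and Skint11 lie below -1 in both comparisons. Skint8 lies above 0 in both, but its interval over Sp8 cKO holds 0.

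To set members beside each other, levels were divided by the length of each gene's merged exons. For Skint9 (1372 bases) and Skint3 (3843 bases) this is also the length of the longest transcript. For Skint1 it is 3014 bases against 1735 in the longest transcript, and for Skint10 3738 against 2149. The order of the genes, including which gene leads, therefore depends on the choice of length. On this scale of CPM per kb, Skint9 led in Sp6 cKO at 16.1, followed by Skint3 at 11.6 and Skint1 at 6.07. In Sp8 cKO Skint9 at 11.2 and Skint3 at 9.56 could not be separated by their counting error. In Sp6+Sp8 cKO Skint3 led at 5.26, ahead of Skint1 at 4.10 and Skint9 at 3.88, of which the last pair could not be separated. In wildtype the first 9 of the 11 genes ran from Skint3 at 2.33 to Skint4 at 1.12 CPM per kb. No neighbours in this order were separable, but the intervals of its ends, Skint3 (2.02 to 2.69) and Skint4 (0.914 to 1.35), did not overlap. In Sp6 cKO the same 9 genes ran from 16.1 to 1.38, and some neighbours were not separable there either.

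Other features inside the cluster and genes at its edges were examined next. Of the 14 annotated features between Skint8 and Skint11 that are not Skint genes, most of them pseudogenes, 3 reached 1 CPM in any library, and the highest was 1.59 CPM. The processed pseudogenes Gm12816 and Gm12818 lie within the span of Skint6 on its strand. Gm12816 had 12 counts in Sp6 cKO, 20 in the Sp8 cKO library and 6 in Sp6+Sp8 cKO, against 2 in wildtype, and Gm12818 had 10, 19 and 6, against 4. Gm15741, within Skint11 but on the opposite strand, had 14, 11 and 3 counts, against 1. Gm12816 and Gm12818 were past the size rule, higher, in Sp8 cKO against wildtype, and Gm15741 in Sp6 cKO. In all 3 the counts were lowest in wildtype and next lowest in Sp6+Sp8 cKO. The sources used here do not say whether the counting used strand.

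The nearest protein-coding genes on either side had smaller log2 ratios to wildtype than the Skint genes past the size rule. Slc5a9, a sugar transporter gene 16.5 kb from Skint8, had 53.6 CPM in Sp6 cKO, 33.7 CPM in Sp8 cKO and 39.9 CPM in Sp6+Sp8 cKO, against 27.8 CPM in wildtype, with log2 ratios of 0.94, 0.27 and 0.52. Spata6, the next gene on that side, had 0.14, 0.18 and 0.19, and Trabd2b, 162 kb beyond Skint11, had 0.20, 0.32 and 0.18. Of the 5 protein-coding genes on each side none was past the size rule against wildtype.

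Markers of the cells that make Skint transcripts were set beside the family. The 8 basal keratinocyte genes, Krt5, Krt14, Krt15, Trp63, Itga6, Itgb4, Col17a1 and Lamb3, had no member past the size rule in any of the 6 comparisons. Their sum was 6064 CPM in Sp6 cKO, 6143 CPM in Sp8 cKO and 6109 CPM in Sp6+Sp8 cKO, against 6700 CPM in wildtype. The 11 suprabasal genes summed to 23601, 19914 and 17191 CPM, against 23991 CPM in wildtype. Krt77, a keratin of differentiating epidermis, was lower in Sp6 cKO and Sp6+Sp8 cKO than in wildtype, with log2 ratios of -1.14 and -1.43. Of all genes, 2.16% and 2.95% were lower in these comparisons. Krt77 was also lower in Sp6+Sp8 cKO than in Sp8 cKO, at -1.28. Krtdap, a gene of keratinocyte differentiation, was lower in Sp6+Sp8 cKO at -1.06, and was also lower there than in either single knockout, at -1.11 and -1.14. No gene of the list was past the rule in the other direction.

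The measured 11 nail and hair keratinocyte genes summed to 5658 CPM in Sp6 cKO, 6301 CPM in Sp8 cKO and 3001 CPM in Sp6+Sp8 cKO, against 5448 CPM in wildtype. Krt33b and Krt83, keratins of the hair and nail cortex, were lower in Sp6+Sp8 cKO at -1.26 and -1.13, where 2.95% of all genes were lower. None was past the rule in the single knockouts. Within batch 1, Krt33b, Krt34, Krt81 and Krt86 were lower in Sp6+Sp8 cKO than in the Sp6 cKO library, and these and Krt83 were lower than in Sp8 cKO, with log2 ratios between -1.05 and -1.35. In these comparisons 2.08% and 2.80% of all genes were lower. The suprabasal and nail sums, like the Skint sum among the cKO libraries, were lowest in Sp6+Sp8 cKO, and their part in the lower Skint sum there was not tested. With the keratinocyte genes as the library size, 5 Skint members in place of 2 were past the rule in Sp6+Sp8 cKO against wildtype, and 3 in place of 5 against Sp6 cKO. That scaling put the median log2 ratio of all genes at 0.38 and 0.34 in these comparisons, and 84.4% and 85.4% of all genes past the rule were then higher. The part of this shift of all genes in the change of the members' counts was not tested.

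The list of T cell genes had another order of levels. It mixes genes of epidermal gamma-delta T cells, with which Skint proteins are connected, with genes of other T cells. Its sum and median are therefore not those of epidermal T cells alone. Of 18 listed T cell genes, 11 reached 1 CPM in Sp6 cKO against wildtype, of which 7 were higher and 0 lower, with a median log2 ratio of 2.25, where 2.24% of all genes were higher. In Sp8 cKO 3 of 10 were higher (median 0.67), where 2.27% of all genes were, and in Sp6+Sp8 cKO 7 of 11 (median 1.77), where 2.84% were. Xcl1 was at 0 in every library. Trdc, the constant gene of the delta chain, had 106 counts in Sp6 cKO, 35 in the Sp8 cKO library and 115 in Sp6+Sp8 cKO, against 18 in wildtype. Trdv4, a variable segment of the delta chain, had 21, 7 and 26 counts, against 0, and Tcrg-C1, a constant gene of the gamma chain, had 47, 17 and 58, against 7. Cd3e and Cd3g, of the receptor complex, Il2rb, a cytokine receptor chain, and Itgae, an integrin of epithelial T cells, were past the rule in Sp6 cKO at 2.62, 2.31, 2.25 and 1.23 and in Sp6+Sp8 cKO at 2.26, 2.71, 1.77 and 1.44. Other listed genes of epidermal T cells did not pass the rule. Tcrg-V5, a gamma chain variable segment, had 1 count in Sp6 cKO and 0 in every other library, and Ccr10, a receptor for the skin chemokine CCL27, had log2 ratios of 0.03, 0.47 and -0.47. These are low counts, and reads of receptor segments may be shared with other segments.

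The genes more typical of alpha-beta T cells were mixed. Trbc2, a constant gene of the beta chain, had log2 ratios of -0.05, -0.22 and 0.18 in the Sp6, Sp8 and Sp6+Sp8 cKO libraries, and Cd4 had -0.07, -0.34 and 0.07. Trac, the alpha chain constant gene, was past the rule in Sp8 cKO at 1.37, on 13 counts against 7 in wildtype. Cd8a had 4, 3 and 6 counts in the cKO libraries, against 2 in wildtype, and did not reach 1 CPM. Between Sp6+Sp8 cKO and Sp6 cKO the T cell list had no member past the rule in either direction and a median of 0.05, where the Skint members had a median of -1.13. Against Sp8 cKO, 7 of 12 T cell genes were higher in Sp6+Sp8 cKO, where 1.88% of all genes were. In the same comparison 4 of 9 Skint members were lower, where 2.80% of all genes were, and 1 was higher. The summed T cell level was 54.97 CPM in Sp6 cKO, 31.8 CPM in Sp8 cKO and 52.3 CPM in Sp6+Sp8 cKO, against 24.7 CPM in wildtype.

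**Figure D4:**
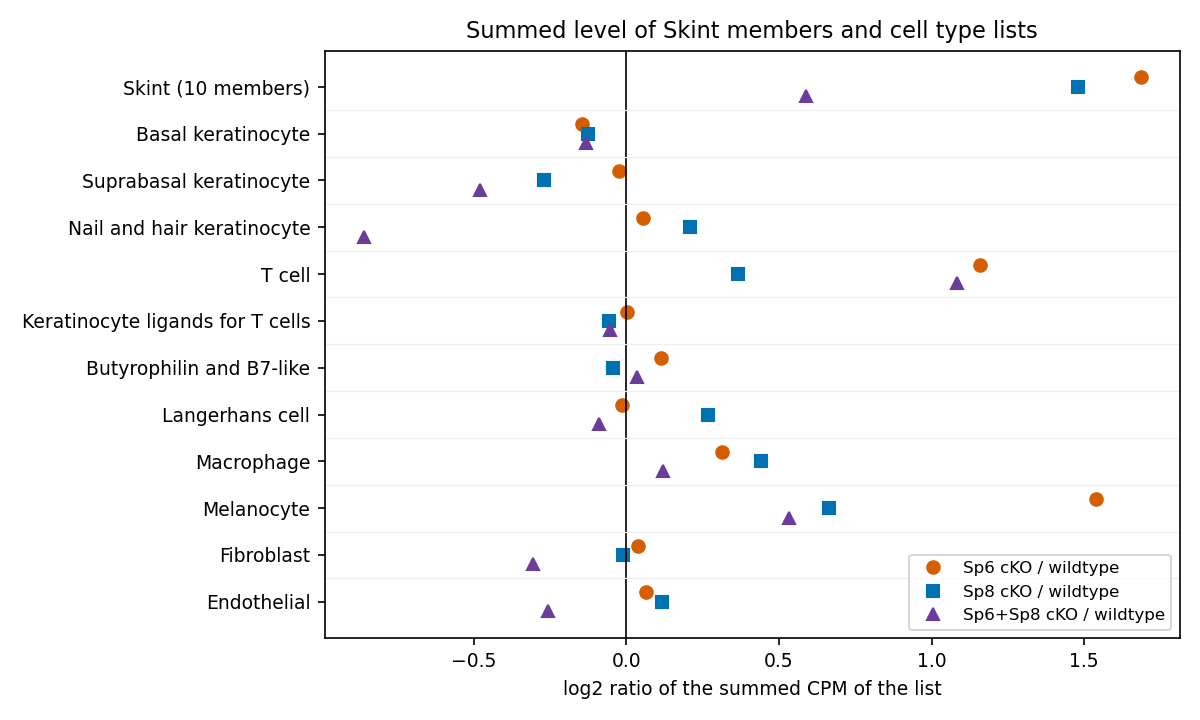
Log2 ratio of summed CPM over wildtype for the 10 Skint members and for each marker list, in Sp6 cKO (circles), Sp8 cKO (squares) and Sp6+Sp8 cKO (triangles). The Skint sum is raised in all 3, least in Sp6+Sp8 cKO; the T cell sum is about as high in Sp6+Sp8 cKO as in Sp6 cKO; and the keratinocyte sums lie near or below 0.

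Other ligands and factors through which keratinocytes address epidermal T cells were examined as a list. Of 10 listed genes 8 reached 1 CPM, and in Sp6 cKO none was past the size rule. In Sp8 cKO 2 of 8 were higher, where 2.27% of all genes were, namely the chemokine gene Ccl27a at 1.17 and Ulbp1, a ligand of the receptor NKG2D, at 1.05. In Sp6+Sp8 cKO H60c, an NKG2D ligand of mouse keratinocytes, was lower than in wildtype at -1.02, where 2.95% of all genes were lower. H60c had 630 counts in Sp6 cKO, 397 in the Sp8 cKO library and 299 in Sp6+Sp8 cKO, against 857 in wildtype, and was also past the rule against Sp6 cKO, at -1.32. Between the single knockouts Ccl27a was lower in Sp6 cKO than in Sp8 cKO, at -1.25.

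The butyrophilin and B7-like genes, relatives of the Skint family, were examined in the same way. Of 17 listed genes 9 reached 1 CPM in Sp6 cKO against wildtype, with 1 higher and 1 lower, where 2.24% and 2.16% of all genes were, and a median log2 ratio of 0.12. Btnl2 had 13 counts in Sp6 cKO, 21 in the Sp8 cKO library and 11 in Sp6+Sp8 cKO, against 7 in wildtype, and was past the rule in the single knockouts at 1.34 and 2.00. Btnl9 had 6, 15 and 3 counts, against 26, and was lower in Sp6 cKO and Sp6+Sp8 cKO at -1.16 and -2.04. Within batch 1, Btnl2 and Btnl9 were lower in Sp6+Sp8 cKO than in Sp8 cKO, at -1.09 and -2.03, and Cd80, a costimulatory ligand, was lower in Sp6+Sp8 cKO than in the Sp6 cKO library at -1.04 and higher in Sp6 cKO than in Sp8 cKO at 1.23. The immune checkpoint ligand genes Cd274 and Cd276 lay between -0.23 and 0.34 in all 3 libraries.

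Among the other cell type lists, 4 of the 5 melanocyte genes reached 1 CPM in Sp6 cKO against wildtype. All 4, the pigment genes Dct, Tyr, Tyrp1 and Pmel, were higher, at 1.55, 1.69, 1.5 and 1.24, where 2.24% of all genes were. In Sp6+Sp8 cKO Tyr was higher, at 1.53, where 2.84% of all genes were. In Sp8 cKO 0 of 3 were past the rule, where 2.27% of all genes were higher. Within batch 1, Tyrp1 and Pmel were lower in Sp6+Sp8 cKO than in the Sp6 cKO library, at -1.15 and -1.29. In that comparison 2.08% of all genes were lower. Tyr and Tyrp1 were higher in Sp6 cKO than in Sp8 cKO, at 1.23 and 1.18, where 1.35% of all genes were. The list summed to 16.4 CPM in Sp6 cKO, 8.97 CPM in Sp8 cKO and 8.19 CPM in Sp6+Sp8 cKO, against 5.66 CPM in wildtype. The macrophage list had medians of 0.43, 0.53 and 0.10 with no member of 5 past the rule. No member of the Langerhans cell, fibroblast or endothelial lists was past the rule against wildtype, and Cd207 (langerin), the defining gene of Langerhans cells, had log2 ratios of -0.72, -0.86 and -0.22. The part of these cell types in the Skint levels was not tested.

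The genes whose profile was nearest that of the Skint sum were found by the root mean square difference over the 3 log2 ratios to wildtype, among 11487 protein-coding genes that reached 5 CPM in any library. They were Fcgr3, Clec4a3, Cys1, Inmt, Mcpt4, Pirb, Cd300lh, Clec10a, Per3 and Arsi, at distances of 0.26 to 0.44. Fcgr3, an Fc receptor gene, had 22.2 CPM in Sp6 cKO, 19.4 CPM in Sp8 cKO and 15.1 CPM in Sp6+Sp8 cKO, against 8.05 CPM in wildtype. Only 21 candidates lay within 0.5. Of the members themselves Skint6 was at 0.22 and Skint1 at 0.46 from the family's sum, while Skint9 was at 0.83, Skint10 at 0.98 and Skint5 at 1.51. The outside genes were picked as the nearest, so their distances are not set against those of the members. The 3 ratios rest on 4 libraries and share the wildtype value.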

How the data were processed

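The deposited table holds estimated counts, 1 value per gene and library and not all whole. The submitters' processing notes name GRCm38, Trim Galore 0.6.4, STAR, featureCounts, Salmon, edgeR and deepTools, with no role given. Libraries were poly-A selected and stranded, read as 150-base pairs, per the labels' protocols. A further value column (1 in all) matched no sample and was left out.

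The counts were rounded to whole numbers, scaled with TMM (edgeR 4.0.16 in R 4.3.3) and compared as log2 CPM with a prior count of 2. With 1 library per genotype no test was possible, so genes were counted by a rule of size: a log2 ratio of at least 1, at least 1 CPM in 1 of the 2 libraries and an exact 95% interval excluding 1. The log2 ratios and the size rule were tried on simulated Poisson counts with known folds. The coverage of the intervals was not checked, and variation between animals was not simulated. Reads without molecular identifiers are not independent molecules, so intervals cover counting error only. Alternatives were DESeq2 1.42.0 size factors, other library sizes, prior counts and minimum CPM. The text names every Skint gene, listed marker genes past the rule, Sp6, Sp8, genes around the cluster and the 10 genes nearest the family's profile. Members and lists were chosen with earlier results of these data known. Annotation was GENCODE M21; upstream sequences were from RefSeq for GRCm38.p6, where all 11 Skint genes matched.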

Additional observations from a re-analysis of the deposited data

How the results depend on the processing

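No paired analysis was possible because each genotype has 1 library; for the same reason no library could be left out. Scaling by DESeq2 size factors, library totals or totals without the 20 most abundant genes, a prior count of 0.5 and unrounded counts left every count of Skint members and of all genes within 1.5 times its reported value. Under no alternative did a called value change sign. A minimum of 5 CPM gave 255 genes past the rule in Sp6 cKO against wildtype (743 as reported), 192 in the Sp8 cKO library (645) and 376 in Sp6+Sp8 cKO (976), and 214, 277 and 135 in Sp6+Sp8 cKO against Sp6 cKO (669), Sp6+Sp8 cKO against Sp8 cKO (790) and Sp6 cKO against Sp8 cKO (525); it left 3 Skint members in place of 5 in Sp6+Sp8 cKO against Sp8 cKO and 0 in place of 1 between the single knockouts, since fewer genes were compared. With no minimum, 973 genes were past the rule in Sp8 cKO against wildtype.

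Taking the basal and suprabasal keratinocyte lists as library size put the median log2 ratio of all genes at 0.38 in Sp6+Sp8 cKO against wildtype (-0.02 as reported). In that comparison 1521 genes were then past the rule, 1283 higher and 238 lower, and 5 Skint members in place of 2. Against Sp6 cKO 1008 genes were past it, 861 higher and 147 lower, and 3 members in place of 5. The share of calls that were higher went to 79.8% in Sp8 cKO against wildtype (59.4% as reported), 84.4% in Sp6+Sp8 cKO (49.1%), 85.4% in Sp6+Sp8 cKO against Sp6 cKO (47.5%), 60.5% against Sp8 cKO (40.1%) and 22.9% in Sp6 cKO against Sp8 cKO (43.6%). The Skint sum kept its direction, with log2 ratios of 1.73, 1.71 and 0.98 to wildtype in the Sp6, Sp8 and Sp6+Sp8 cKO libraries. In Sp6+Sp8 cKO it was at -0.75 against Sp6 cKO (-1.10 as reported) and -0.73 against Sp8 cKO (-0.89). Between the single knockouts it was at 0.02 (0.21 as reported). Skint5 in Sp6+Sp8 cKO, which was past no rule, had a log2 ratio of 0.07 in place of -0.32. Adding Skint8 to the members, an alternative chosen after seeing the data, gave a summed log2 ratio of 1.56 in Sp6 cKO against wildtype (1.69 as reported). In Sp6+Sp8 cKO against Sp6 cKO it gave -0.96 (-1.10 as reported), a drop smaller than a log2 ratio of 1. One library per genotype is the main limit, and no value here measures variation between animals.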
